A study of Homo sapiens with 36 samples.

Results

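The genes described here encode inhibitors of the ERK cascade, some of which act on the kinases JNK and p38 as well or more. They are 10 genes out of 60675 in the count table, taken by symbol: the dual-specificity phosphatase genes DUSP1, DUSP4, DUSP5, DUSP6 and DUSP10, the Sprouty genes SPRY1, SPRY2 and SPRY4, and the Sprouty-related genes SPRED1 and SPRED2. Each symbol matched 1 Ensembl gene. The rule itself uses no measured value, but the genes were chosen with earlier results of these data known, which can favour a high count of calls.

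The ERK cascade carries signals from receptor tyrosine kinases through RAS, RAF and MEK to the kinases ERK1 and ERK2, which enter the nucleus and change transcription. Many genes that ERK turns on encode inhibitors of the same cascade: DUSP phosphatases remove the activating phosphates from ERK, JNK or p38, Sprouty proteins act between receptor and RAF, and SPRED proteins bring the RAS inactivator neurofibromin to the membrane. The RNA of such feedback genes is often read as a gauge of ERK output, but transcripts alone do not measure phosphorylated ERK, and no kinase activity was measured in these samples.

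RNA was sequenced from SW1783, a human astrocytoma line, and HT29, a human colorectal adenocarcinoma line that is known to carry an activating mutation in BRAF. Cells were treated for 24 h in 12 groups of 3 libraries each, 36 in all. In batch A of each line, wortmannin at 10 µM stood against a vehicle group. It blocks PI3K, the lipid kinase upstream of AKT, and was the positive control. In batch B, a water extract of processed Aconitum carmichaeli root (ACD) at 20, 100 and 500 µg/mL, called low, medium and high, stood against its own vehicle group, and the labels give 0.1% DMSO as vehicle in both batches. Each treatment was set against its batch's own vehicle, and the ACD doses of a line share their vehicle libraries.

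Library totals ranged from 15941255 to 33866644 counts. Of 7 mesenchymal or glial markers, 5 had a mean over 1 TPM (transcripts scaled by exon length and library) in SW1783, where the list summed to 5740 to 8230 TPM against 110 to 187 in HT29. All 7 epithelial markers passed that level in HT29, with sums of 7030 to 9350 TPM against 88.7 to 330 in SW1783. COL1A2 and S100B were at 0 in every HT29 library and CDX2 in every SW1783 library. The marker sums can rest on their most abundant genes, so they do not show the level of the glial genes GFAP and S100B in SW1783. Replicate 2 of the high dose in HT29 stood apart from its group: the chi-square per degree of freedom was 64.3 and 65.1 against its 2 partners, which had 9.33 between them. Vehicle replicate 1 of HT29 also stood apart, less far, with 13.8 and 15.8 against 3.78 between its partners in batch B and 13.5 and 15.5 against 3.54 in batch A. Values without these libraries follow the results of HT29. The labels do not say that replicates were separate cultures, so p-values measure the spread between these libraries.

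The sequences just upstream of transcription starts are shown for DUSP1, SPRY2, DUSP6 and DUSP10, since all of these rose at the high dose in SW1783. Each line gives the 250 bases before the start, 5′ to 3′ on the gene's strand, from the RefSeq promoter table on GRCh38.p14. Capitals mark TGACG or its reverse complement CGTCA, the core letters of the cyclic AMP response element (CRE), which CREB and ATF factors are known to bind. The windows are chr5:172771196-172771445 for DUSP1, chr13:80341127-80341376 for SPRY2, chr12:89352502-89352751 for DUSP6 and chr1:221742090-221742339 for DUSP10, all on the minus strand.
DUSP1: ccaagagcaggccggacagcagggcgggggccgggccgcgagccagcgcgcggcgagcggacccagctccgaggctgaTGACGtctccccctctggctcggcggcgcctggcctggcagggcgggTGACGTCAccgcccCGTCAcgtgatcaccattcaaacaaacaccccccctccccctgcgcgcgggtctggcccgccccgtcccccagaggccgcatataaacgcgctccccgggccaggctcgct
SPRY2: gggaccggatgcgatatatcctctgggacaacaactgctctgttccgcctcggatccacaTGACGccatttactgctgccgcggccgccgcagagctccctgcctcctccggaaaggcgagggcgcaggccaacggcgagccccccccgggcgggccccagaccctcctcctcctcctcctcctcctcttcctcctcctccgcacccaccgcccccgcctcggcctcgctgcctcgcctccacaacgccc
DUSP6: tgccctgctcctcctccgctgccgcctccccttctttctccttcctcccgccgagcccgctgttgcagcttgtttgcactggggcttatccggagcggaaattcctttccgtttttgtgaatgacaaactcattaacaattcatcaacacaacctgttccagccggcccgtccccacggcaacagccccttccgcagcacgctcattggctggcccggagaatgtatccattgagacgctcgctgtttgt
DUSP10: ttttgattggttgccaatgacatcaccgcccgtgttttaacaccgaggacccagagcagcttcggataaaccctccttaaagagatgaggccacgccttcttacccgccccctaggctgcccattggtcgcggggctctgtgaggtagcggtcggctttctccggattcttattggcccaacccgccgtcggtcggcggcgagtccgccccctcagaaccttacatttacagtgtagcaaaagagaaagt
The DUSP1 window held 4 of these letter runs, of which a pair overlap as the palindrome TGACGTCA. The SPRY2 window held 1, and the windows of DUSP6 and DUSP10 held none. With both strands searched, TGACG was in 21.2% of all 35116 windows of this length and TGACGTCA in 1.65%. Of the 8 genes with a window in the table, TGACG was in 3 (DUSP1, SPRY2 and SPRY4) and TGACGTCA in DUSP1 alone. The SPRY4 window lies inside the annotated gene and holds 170 exon bases, and that of SPRED2 holds 38, so neither is wholly upstream sequence. Of the 6 windows free of exon bases, 2 held TGACG. None of the 8 held the AP-1 letters TGANTCA, which were in 6.57% of all windows, the ETS letters CCGGAAG, in 8.52%, or a CArG box, in 1.16%. These matches describe letters in a short window, and binding was not measured.

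In the vehicle of batch B, the lines kept different members of the family at high RNA levels. Levels of different genes are compared per length, in TPM, as mean ± SD over 3 libraries. In SW1783 the order began with DUSP1 at 64.9 ± 3.61 TPM, DUSP4 at 51.0 ± 1.02 and SPRED1 at 38 ± 0.839, whose ranges did not overlap. SPRY2 at 25.4 ± 0.436, SPRED2 at 24.3 ± 1.37 and DUSP6 at 22.2 ± 1.85 followed, each overlapping with the next. DUSP10 at 18.8 ± 1.53, DUSP5 at 18.4 ± 1.43 and SPRY4 at 16.6 ± 1.07 also overlapped in turn, and SPRY1 came last at 0.57 ± 0.155 TPM, with raw counts of 13, 9 and 13.

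In HT29 the SPRED genes and DUSP6 led instead. SPRED2 at 59.8 ± 8.98 TPM, SPRED1 at 55.4 ± 7.22 and DUSP6 at 50.2 ± 5.08 overlapped in turn. SPRY4 stood apart at 32.6 ± 4.71, SPRY1 at 24.6 ± 1.0 and SPRY2 at 24.2 ± 1.1 overlapped, and DUSP4 at 12.8 ± 0.819, DUSP1 at 7.48 ± 0.707 and DUSP5 at 5.22 ± 0.696 were each apart from the next. DUSP10 was last at 0.797 ± 0.166 TPM, from raw counts of 17, 18 and 15.

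**Figure D1:**
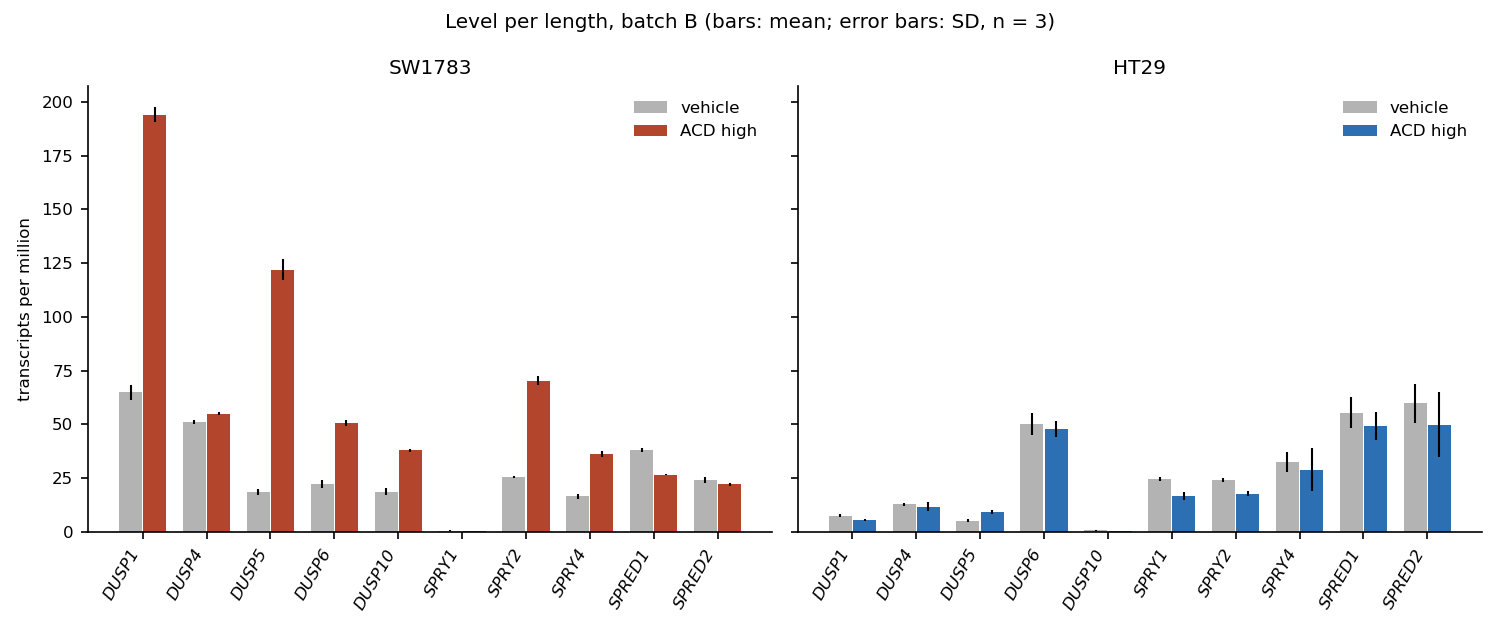
Levels per length in the batch B vehicle and high-dose libraries, in TPM on a linear axis from 0 (bars: mean; error bars: SD of 3 libraries), with SW1783 on the left and HT29 on the right. DUSP1 at 64.9 TPM leads the SW1783 vehicle and SPRED2 at 59.8 TPM that of HT29; at the high dose DUSP1 reached 194.0 TPM in SW1783 and 5.58 TPM in HT29.

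Tested between the batch B vehicles, 9 of the 10 genes differed by more than 1.5-fold, where 52.8% of the 24140 genes tested did. A gene is called here when its adjusted p is under 0.05 in DESeq2 and its fold change is over 1.5. The phosphatase genes DUSP10, DUSP1, DUSP4 and DUSP5 were higher in SW1783, by 4.29 ± 0.22 (SE), 2.82 ± 0.11, 1.68 ± 0.05 and 1.49 ± 0.12 on the log2 scale of normalized counts. SPRY1, SPRED2, DUSP6, SPRY4 and SPRED1 were higher in HT29, with log2 differences (SW1783 minus HT29) of -5.78 ± 0.26, -1.62 ± 0.13, -1.50 ± 0.06, -1.29 ± 0.14 and -0.87 ± 0.05. For SPRY2 the difference of -0.24 ± 0.07 in normalized counts was not called, and its mean TPM was the higher in SW1783, so its direction depended on the scale. Line and culture medium (L-15 for SW1783, DMEM for HT29) cannot be told apart in these differences.

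The vehicle groups of batches A and B gave no call among the 10 genes in either line with DESeq2 or edgeR, where 0.00348% of all genes tested were called in SW1783 and 0% in HT29. At an unadjusted p under 0.05 there was 1 such gene in SW1783, SPRED1 at 0.10 ± 0.05 (A minus B, log2), and 0 in HT29. Vehicle libraries that carry the same replicate number in both batches were more alike over all genes (chi-square per degree of freedom 1.44 to 1.61) than those with different numbers (1.96 to 16.1), so the batches' vehicles may not be separate cultures, and they never entered 1 comparison as replicates.

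At the high dose of ACD in SW1783, 6 of the 10 feedback genes rose and none fell by more than 1.5-fold. Of 20033 genes tested, 17.7% were called and 8.42% were called higher. All treated libraries lay above all vehicle libraries for 7 of the 10, where this held for 29.9% of genes tested, and 8 of the 10 had an adjusted p under 0.05, where 45% did. The median log2 fold change of the 10 was 1.3, against -0.01 over all genes tested. The 6 were DUSP5, DUSP1, DUSP6, DUSP10, SPRY2 and SPRY4, with rises of 2.36 to 7.73-fold, and edgeR called 6 as well. The share of counts from the mitochondrial ribosomal RNA genes also moved with dose, from 0.912% to 0.96% in vehicle to 3.01% to 3.33%, 7.67% to 8.05% and 5.76% to 6.06% at the low, medium and high doses, and its part in these changes was not tested.

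DUSP5 (ENSG00000138166; chr10:110497907-110511533, plus strand; positions from GENCODE v44 on GRCh38), the nuclear phosphatase that acts on ERK and little on other kinases, changed most. Its normalized counts were 234.7, 222.5 and 262.3 in vehicle and 1831, 1922 and 1797 at the high dose. Every high-dose library was far above every vehicle library. On the log2 scale it rose by 2.95 ± 0.09 (SE; DESeq2 adjusted p = 1.68e-254). Per length, DUSP5 moved from the eighth to the second place among the 10 genes, at 122.0 ± 4.73 TPM.

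DUSP6 (ENSG00000139318; chr12:89347235-89352501, minus strand), the cytoplasmic phosphatase that also prefers ERK, had 475.5, 400.4 and 444.4 normalized counts in vehicle and 1139, 1192 and 1187 with treatment. The groups did not overlap. Its log2 fold change was 1.42 ± 0.08 (DESeq2 adjusted p = 7.63e-76). An unnamed long non-coding RNA (ENSG00000274021) shares exon bases with DUSP6 on the other strand, and the strand setting of the authors' counting was not stated, so a part of its reads could belong to that transcript.

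DUSP1 (ENSG00000120129; chr5:172768096-172771195, minus strand), an immediate early phosphatase that acts on p38 and JNK as well as ERK, had 705, 662.3 and 640.1 normalized counts in vehicle and 2393, 2320 and 2311 at the high dose. The 3 treated libraries lay close together and well above the vehicle. The log2 fold change was 1.81 ± 0.06 (DESeq2 adjusted p = 1.77e-173). DUSP10 (ENSG00000143507; chr1:221701424-221742089, minus strand), which prefers p38 and JNK, rose from 284.9, 245.3 and 287.2 to 657.6, 636.1 and 628.5, again without overlap, with 1.24 ± 0.09 (DESeq2 adjusted p = 4.3e-38). The genes that rose so included phosphatases of the stress kinases beside those of ERK.

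Among the Sprouty genes, SPRY2 (ENSG00000136158; chr13:80335976-80341126, minus strand) had 408.9, 417.9 and 427.7 normalized counts in vehicle and 1385, 1363 and 1310 with treatment, and changed by 1.69 ± 0.07 on the log2 scale (DESeq2 adjusted p = 7.39e-120). SPRY4 (ENSG00000187678; chr5:142310427-142326455, minus strand) had 532.8, 532.7 and 603.6 in vehicle and 1461, 1360 and 1454 with treatment, with 1.36 ± 0.07 (DESeq2 adjusted p = 2.04e-80). For neither gene did the groups overlap. SPRY1 (ENSG00000164056; chr4:123396795-123403760, plus strand) stayed at few counts, at 13.32, 7.885 and 13.53 in vehicle and 9.261, 9.009 and 5.612 at the high dose, and its change of -0.54 ± 0.60 gave no call.

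The other 3 genes moved little. DUSP4 (ENSG00000120875; chr8:29333064-29350684, minus strand), a nuclear phosphatase already abundant in SW1783, went from 1849, 1901 and 1948 normalized counts to 2430, 2357 and 2394. These groups did not overlap, but the change of 0.33 ± 0.04 (DESeq2 adjusted p = 2.64e-14) was under 1.5-fold. SPRED1 (ENSG00000166068; chr15:38252836-38357249, plus strand) was lower in all 3 high-dose libraries, at 1227, 1239 and 1250 against 1521, 1513 and 1484, a change of -0.28 ± 0.05 (DESeq2 adjusted p = 4.49e-08) that was likewise under 1.5-fold. SPRED2 (ENSG00000198369; chr2:65310851-65432637, minus strand) overlapped between the groups, with 0.09 ± 0.08 (95% interval -0.06 to 0.25). On the TPM scale the median of 11222 genes shifted by -0.20 log2 units between vehicle and the high dose in SW1783, so changes are read from normalized counts and TPM is used for the order of levels.

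**Figure D2:**
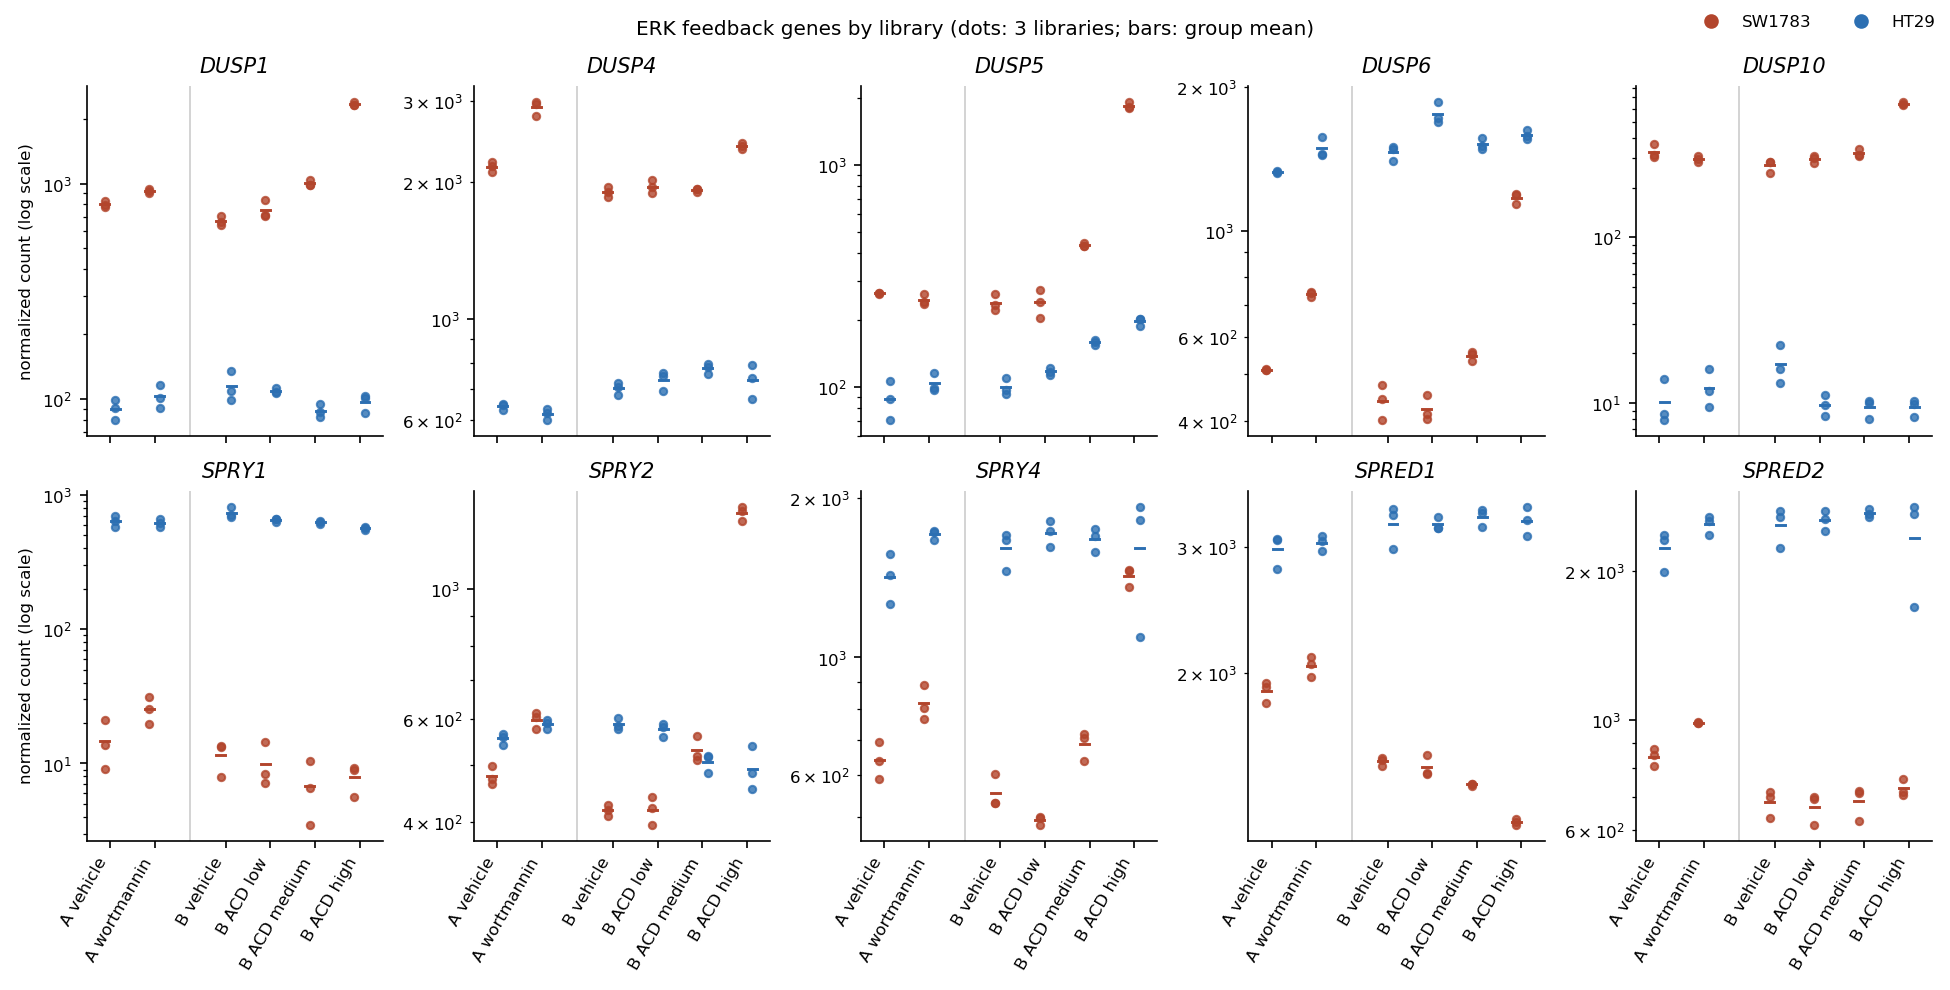
Normalized counts of the 10 genes in every library, on log axes that differ between genes (dots: single libraries; bars: mean of 3; SW1783 red, HT29 blue; counts scaled within each line and batch). In SW1783 the high-dose dots of DUSP5 (1797 to 1922) lie above the vehicle dots (222.5 to 262.3), while the HT29 dots of SPRY4 at the high dose span 1091 to 1925.

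At the low dose in SW1783 none of the 9 genes tested was called by DESeq2 or edgeR, where 0.119% of all genes tested were, and 2 genes had an unadjusted p under 0.05: DUSP1 at 0.17 ± 0.07 and SPRY4 at -0.17 ± 0.08. At the medium dose 2 of 9 tested were called, both higher, against 3.78% of all genes tested, 2.33% in that direction. DUSP5 had 443.9, 430.6 and 432.5 normalized counts there, above every vehicle library, a rise of 0.86 ± 0.09 (DESeq2 adjusted p = 7.45e-19).

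DUSP1 at the medium dose had 987.6, 1043 and 984.7, with 0.59 ± 0.07 (DESeq2 adjusted p = 7.32e-17). This lies just past the 1.5-fold line, and the call was lost without vehicle replicate 2, vehicle replicate 3 or medium replicate 2, which gave 0.58, 0.56 and 0.56. SPRY2 at 0.34 ± 0.08, DUSP6 at 0.32 ± 0.08 and SPRY4 at 0.31 ± 0.07 passed the adjusted p without reaching 1.5-fold, which makes 5 of the 10 past the adjusted p against 30.1% of all genes tested. All medium libraries were above all vehicle libraries for 6 of the 10, where this held for 25.2% of genes tested. Over the 9 genes the median change was 0.31, against -0.0001 over all genes tested.

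From the medium to the high dose the 6 genes that the high dose had called against vehicle rose again, by 2.00 to 4.25-fold, where 9.79% of all genes tested were called and 4.41% were called higher. DUSP5 added 2.09 ± 0.08 and SPRY2 1.36 ± 0.07 on the log2 scale. DUSP1, DUSP6, SPRY4 and DUSP10 added 1.22 ± 0.06, 1.10 ± 0.07, 1.05 ± 0.07 and 1.00 ± 0.09. These values share the high-dose libraries with the comparison against vehicle, so they are no second observation of the rise.

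In HT29 1 of the 10 genes was called at the high dose, DUSP5, which rose, where 3.13% of all genes tested were called and 1.36% were called higher. Its normalized counts were 96.64, 109.8 and 92.57 in vehicle and 188.8, 201.7 and 202.3 at the high dose. The groups did not overlap, but the treated level remained below the vehicle level of SW1783, at 9.08 ± 0.898 against 18.4 ± 1.43 TPM. The log2 fold change was 0.97 ± 0.14 (DESeq2 adjusted p = 2.58e-10), 0.96 ± 0.17 without high-dose replicate 2 and 0.95 ± 0.15 without vehicle replicate 1. The median change of the 10 genes was -0.04, against 0.01 over all genes tested. Here mitochondrial ribosomal RNA took 1.14% to 1.22% of counts in vehicle and 11.3% to 12.5% at the high dose, and its part was not tested either.

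DUSP5 was also the only one of the 10 called at the medium dose in HT29, against 0.786% of all genes tested. It had 159.3, 162.7 and 154.2 normalized counts, between vehicle and high dose and overlapping with neither, with 0.66 ± 0.14 (DESeq2 adjusted p = 0.000399), and 0.64 ± 0.15 without vehicle replicate 1, still called. From medium to high it changed by 0.31 ± 0.13 (DESeq2 adjusted p = 0.304), and no gene of the 10 was called for that step by DESeq2 or edgeR, against 0.687% of all genes tested. DUSP5 alone of the 10 had an unadjusted p under 0.05 there. Against vehicle, 4 of the 10 had such a p at the medium dose. All medium libraries lay below all vehicle libraries for 4 of the 10 and above them for 2. Over genes tested, these held for 13% and 14.2%.

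Some HT29 genes were lower with ACD without reaching 1.5-fold. SPRY1 had 820.8, 715.6 and 683.1 normalized counts in vehicle and 567.6, 547.1 and 575.7 at the high dose, without overlap, with -0.38 ± 0.09 (DESeq2 adjusted p = 0.000289). SPRY2 had 601, 575.1 and 584.1 in vehicle and 455.2, 538.5 and 484.6 at the high dose, with -0.26 ± 0.08 (DESeq2 adjusted p = 0.028; edgeR adjusted p = 0.0664). Without high-dose replicate 2 these changes were -0.37 ± 0.09 and -0.32 ± 0.09. Without vehicle replicate 1 they were -0.31 ± 0.08 and -0.24 ± 0.09, and SPRY2 no longer passed the adjusted p (0.12). With all libraries 3 of the 10 genes passed it, where 8.41% of all genes tested did.

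The library that stood apart mattered most for SPRY4 and SPRED2 in HT29. The high-dose normalized counts of SPRY4 were 1925, 1091 and 1817 against 1456, 1668 and 1700 in vehicle, and its change was 0.01 ± 0.17 with all libraries and 0.21 ± 0.08 (DESeq2 adjusted p = 0.0479) without replicate 2. SPRED2 had 2695, 1694 and 2606 against 2221, 2570 and 2634, with -0.08 ± 0.15 and, without replicate 2, 0.09 ± 0.07. Replicate 2 was the lowest library in both genes. DUSP6, DUSP4, SPRED1, DUSP1 and DUSP10 gave no call, with changes of 0.12 ± 0.06, 0.07 ± 0.08, 0.02 ± 0.07, -0.24 ± 0.17 and -0.86 ± 0.46. Without high-dose replicate 2 they were 0.10 ± 0.07, 0.13 ± 0.08, 0.05 ± 0.06, -0.27 ± 0.21 and -0.92 ± 0.57 in the same order, and without vehicle replicate 1 0.09 ± 0.07, 0.07 ± 0.10, -0.04 ± 0.06, -0.12 ± 0.18 and -0.64 ± 0.50, again with no call (DUSP10 was not tested without replicate 2). DUSP10 had few counts, with 22.51, 13.17 and 15.96 in vehicle and 9.823, 10.26 and 8.213 at the high dose.

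At the low dose in HT29 no gene was called by DESeq2 or edgeR, where 0.285% of all genes tested were. DUSP6 had 1685, 1722 and 1859 normalized counts against 1398, 1485 and 1497 in vehicle, without overlap, with 0.26 ± 0.06 (DESeq2 adjusted p = 0.00569; edgeR adjusted p = 0.179). Without vehicle replicate 1 it was 0.24 ± 0.07 and no longer passed (DESeq2 adjusted p = 0.0989). At the medium and high doses the DUSP6 change was 0.05 ± 0.06 and 0.12 ± 0.06, so the largest value of this gene in HT29 stood at the lowest dose. SPRY1, at -0.17 ± 0.08, was the other gene with an unadjusted p under 0.05, and was -0.10 ± 0.08 without vehicle replicate 1.

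**Figure D3:**
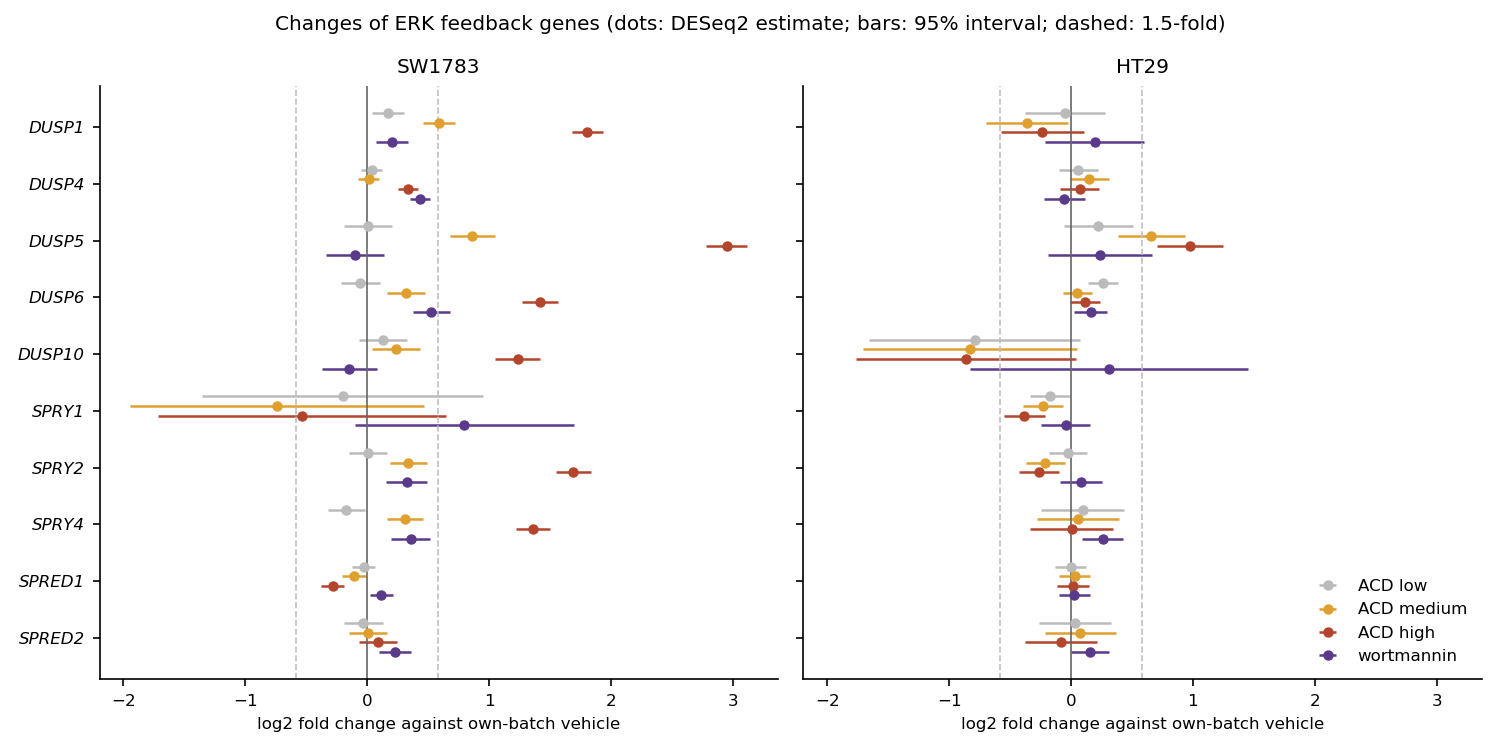
Log2 fold changes of the 10 genes against the vehicle of their own batch, by DESeq2 (dots: estimate; bars: 95% interval; dashed lines: 1.5-fold), with SW1783 on the left and HT29 on the right. The high dose (red) lies past the right dashed line for 6 genes in SW1783, from 1.24 for DUSP10 to 2.95 for DUSP5, and in HT29 for DUSP5 at 0.97.

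The test of the difference itself was the interaction of line and treatment, the log2 change in SW1783 minus that in HT29. Line, culture medium and the number of cells plated, which also differed, cannot be told apart in it. At the high dose the interaction was called for 6 of the 10 genes, where 14.6% of all genes tested were called. They were DUSP10 with 2.03 ± 0.37 (DESeq2 adjusted p = 4.54e-07), DUSP1 with 2.00 ± 0.15, DUSP5 with 1.94 ± 0.15, SPRY2 with 1.91 ± 0.09, SPRY4 with 1.31 ± 0.20 and DUSP6 with 1.26 ± 0.08. The adjusted p of the last 5 was at most 6.39e-10. All 6 were still called without high-dose replicate 2 of HT29, at 2.07 ± 0.40, 2.02 ± 0.16, 1.94 ± 0.16, 1.96 ± 0.10, 1.10 ± 0.10 and 1.27 ± 0.09 in the same order, and without its vehicle replicate 1, at 1.84 ± 0.40, 1.88 ± 0.16, 1.96 ± 0.16, 1.90 ± 0.10, 1.37 ± 0.21 and 1.29 ± 0.09. SPRED1 at -0.34 ± 0.07 and DUSP4 at 0.21 ± 0.07 passed the adjusted p only. Without high-dose replicate 2 SPRED1 was -0.38 ± 0.07, and DUSP4 was 0.15 ± 0.07 and no longer passed (DESeq2 adjusted p = 0.0951).

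DUSP5 rose in both lines, and the difference in its high-dose response was one of size. For DUSP1, SPRY2 and DUSP10 the HT29 estimates were below 0, at -0.24, -0.26 and -0.86, of which only that of SPRY2 passed the adjusted p. DUSP6 and SPRY4 had HT29 estimates of 0.12 and 0.01. Per length, DUSP6 in SW1783 at the high dose, 50.7 ± 1.39 TPM, overlapped with its level in the HT29 vehicle, 50.2 ± 5.08 TPM.

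At the medium dose the interaction was called for DUSP1, with 0.91 ± 0.15 (DESeq2 adjusted p = 2.61e-07), and for DUSP10, with 1.01 ± 0.35 (DESeq2 adjusted p = 0.045), where 3.31% of all genes tested were called. The DUSP10 call rests on few HT29 counts and was lost in 9 of the 12 fits that left out a library, with an adjusted p of up to 0.206 without HT29 vehicle replicate 1. For DUSP5 the medium-dose difference was 0.19 ± 0.15 (95% interval -0.11 to 0.48). At the low dose no interaction was called by DESeq2 or edgeR, against 0.261% of all genes tested, with unadjusted p under 0.05 for DUSP6 at -0.34 ± 0.09 and DUSP10 at 0.86 ± 0.35.

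With wortmannin in SW1783 DESeq2 called none of the 10 genes and edgeR 1, where 2.67% of all genes tested were, but 7 had an adjusted p under 0.05 (also 7 unadjusted) and all 7 were higher, where 31.7% of all genes tested passed that p in either direction. All treated libraries were above all vehicle libraries for 7 of the 10, where this held for 24.9% of genes tested. The median change of the 10 was 0.28, against -0.0003 over all genes tested. DUSP6 had 513.3, 510.2 and 511.1 normalized counts in vehicle and 725, 741.1 and 745.3 with wortmannin, with 0.53 ± 0.08 (DESeq2 adjusted p = 2.12e-10).

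DUSP4 had 2102, 2165 and 2203 in vehicle and 2958, 2787 and 2991 with wortmannin, with 0.43 ± 0.04 (DESeq2 adjusted p = 4.63e-22). In both genes all treated libraries were above all vehicle libraries. SPRY4, SPRY2, SPRED2, DUSP1 and SPRED1 followed with 0.36 ± 0.08, 0.32 ± 0.08, 0.23 ± 0.07, 0.20 ± 0.07 and 0.12 ± 0.05. DUSP5, the gene that changed most with ACD, had 264.4, 263 and 265.2 in vehicle and 241.4, 261.3 and 237.3 with wortmannin, a change of -0.10 ± 0.12 (95% interval -0.34 to 0.14). SPRY1, at 21.2, 13.84 and 9.065 against 19.8, 31.52 and 25.4, was called by edgeR (0.79, adjusted p = 0.0439) and not by DESeq2 (0.80 ± 0.46, adjusted p = 0.188).

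Under wortmannin in HT29, DESeq2 and edgeR called none of the 9 genes tested, where 2.7% of all genes tested were. SPRY4 had 1262, 1570 and 1430 normalized counts in vehicle and 1721, 1729 and 1666 with wortmannin, without overlap, with 0.26 ± 0.09 (DESeq2 adjusted p = 0.017), and 0.18 ± 0.06 (DESeq2 adjusted p = 0.0281) without vehicle replicate 1. DUSP6 at 0.16 ± 0.07 and SPRED2 at 0.16 ± 0.08 had an unadjusted p under 0.05 only. Without vehicle replicate 1 DUSP6 was 0.16 ± 0.07, and SPRED2 was 0.09 ± 0.05 and lost that p (DESeq2 unadjusted p = 0.112). The interaction of line and wortmannin was called for none of the 10 by DESeq2 or edgeR, against 3.39% of all genes tested. DUSP4 at 0.47 ± 0.08 (DESeq2 adjusted p = 5.51e-08) and DUSP6 at 0.34 ± 0.08 (DESeq2 adjusted p = 0.000635) passed the adjusted p without 1.5-fold, and at an unadjusted p under 0.05 there were 4. Without HT29 vehicle replicate 1 SPRY1, with few counts in SW1783, was called in this interaction, at 0.82 ± 0.30 (DESeq2 adjusted p = 0.0356).

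The wider pathway was read from lists of genes around the 10. Of 9 further genes that ERK is known to induce or that are used to gauge it, 5 rose and 2 fell at the high dose in SW1783, with a median of 0.86. Over all genes tested there, 8.42% were called higher and 9.28% lower, with a median of -0.01. These shares apply to the other lists at this dose in SW1783 too. The largest were IER3, a survival factor and ERK substrate, which went from 28.55 ± 4.83 to 310.8 ± 9.99 normalized counts (SD, n = 3; log2 3.45 ± 0.22), PHLDA1, from 4459 ± 248 to 19980 ± 544 (2.16 ± 0.04), and the receptor gene EPHA4, which fell from 335 ± 9.84 to 155.4 ± 19.6 (-1.12 ± 0.12). The ETS factors split, with ETV4 at 1.01 ± 0.14 and ETV5 at 0.86 ± 0.04 higher and ETV1 at -0.76 ± 0.05 lower. ETV4, ETV5, ETV1 and FOSL1, which rose by 0.86 ± 0.05, were named after their values were seen.

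Immediate early genes, which answer to ERK within minutes and were sampled here at 24 h, were mixed in SW1783. Of 9, DESeq2 called none higher, though 3 passed the adjusted p upward, 4 had an unadjusted p under 0.05 upward and edgeR called FOSB (0.62, adjusted p = 0.0103). It called 2 lower, FOS and EGR3, the latter from 149 ± 10.9 to 63.5 ± 11.4 normalized counts (-1.24 ± 0.18). FOS had a mean under 50 normalized counts and changed by -1.18 ± 0.37. Of 24 genes from receptors to ERK, DESeq2 and edgeR called none higher, with 8 at an unadjusted p under 0.05 upward, and 2 lower, PDGFRA (586.9 ± 23.8 to 223.1 ± 29.2; -1.40 ± 0.10) and PDGFRB (1554 ± 32.7 to 702.4 ± 11.7; -1.15 ± 0.06), both receptors for platelet-derived growth factor. The list had a median of 0.03, and its 2 of 24 called lower were near the share over all genes tested, 9.28%.

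Other inhibitors of the pathway were mixed. Of 9, RASA1, which inactivates RAS, rose by 1.08 ± 0.04, ERRFI1, an inhibitor of the EGF receptor, rose by 0.83 ± 0.05, and SPRY3 fell by 1.17 on the log2 scale (SE 0.27). Of 5 other MAP kinase phosphatase genes, DUSP8 rose from 65.63 ± 7.78 to 133.9 ± 11.8 normalized counts (1.03 ± 0.20) and DUSP2, with a mean of 16.6, fell by 1.67 (SE 0.47). Of 9 genes for JNK, p38 and their kinases, DESeq2 and edgeR called none in SW1783, with 5 at an unadjusted p under 0.05. FOS, FOSB and DUSP2 were below the mean count set for naming and were named after their values were seen. Of the 7 mesenchymal or glial markers, 2 were called at the same dose, both lower: COL1A1 at -2.07 ± 0.04 and COL1A2 at -1.89 ± 0.05. All 7 were tested, and 3 passed the adjusted p downward and 1 upward. Of 7 epithelial markers 2 could be tested there, KRT8 at -0.59 ± 0.10 and KRT18 at -1.55 ± 0.05, and both were called lower. The part of these shifts in the changes of the feedback genes was not tested. Fewer cells of a kind and less RNA per cell cannot be told apart in such bulk libraries.

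**Figure D4:**
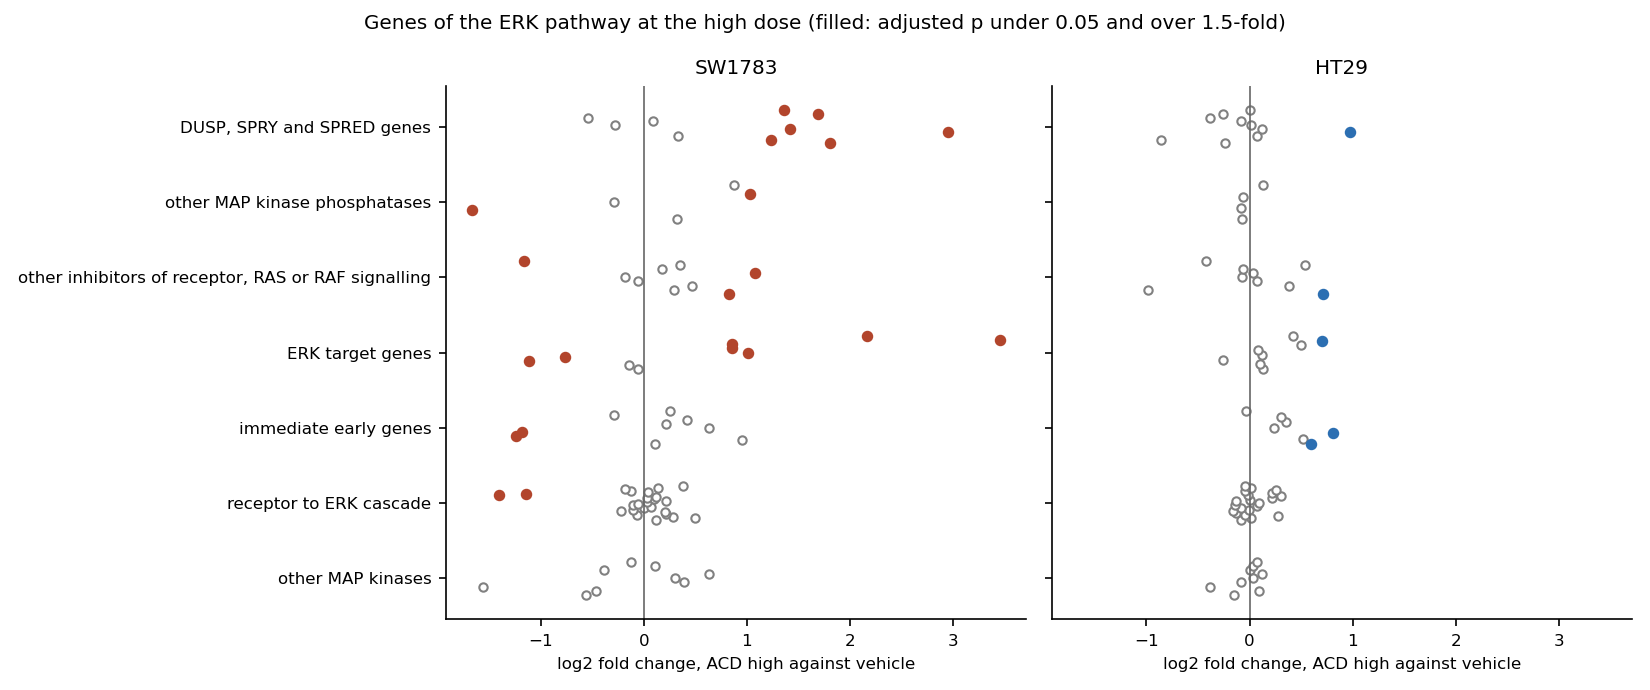
Log2 fold changes at the high dose for the 10 DUSP, SPRY and SPRED genes and 6 further lists of the pathway, 1 dot per gene tested (filled: adjusted p under 0.05 and over 1.5-fold in DESeq2), with SW1783 on the left and HT29 on the right. In SW1783 6 feedback genes and 5 ERK target genes are filled to the right of 0, while the receptor to ERK cascade has 2 filled dots, both to the left.

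In HT29 at the high dose the ERK target list had 1 call, IER3 at 0.71 ± 0.11 (1567 ± 273 to 2552 ± 90.9 normalized counts), and the list of other inhibitors had ERRFI1 at 0.71 ± 0.05. Over all genes tested there, 1.36% were called higher. Of the 8 ERK target genes tested, 3 passed the adjusted p, all higher, where 8.41% of all genes tested passed it in either direction. Without high-dose replicate 2 it was 6 of 8, and without vehicle replicate 1 it was 3 of 8, again all higher. The interaction was called for IER3 at 2.71 ± 0.21 and not for ERRFI1 at 0.08 ± 0.07, a gene that rose in both lines. Of the 9 ERK target genes it was called for 4, all toward SW1783, where 6.86% of all genes tested were called in that direction. In either direction it was called for 5 of them without high-dose replicate 2 and for 4 without vehicle replicate 1. Without high-dose replicate 2 or vehicle replicate 1, IER3 changed by 0.68 ± 0.10 or 0.85 ± 0.07 in HT29 and ERRFI1 by 0.70 ± 0.06 or 0.67 ± 0.05, all called. SPRED3, of the list of other inhibitors, was called without high-dose replicate 2, at 0.90 ± 0.34 (DESeq2 adjusted p = 0.0489). Among the immediate early genes 6 of the 7 tested had an adjusted p under 0.05, all higher, where 8.41% of all genes tested passed it in either direction. Without high-dose replicate 2 it was 5 of 7, and without vehicle replicate 1 it was 5 of 8. DESeq2 called 2, FOSB at 0.81 ± 0.20 and EGR1 at 0.60 ± 0.20. The EGR1 groups overlapped and edgeR gave an adjusted p of 0.0867. Without high-dose replicate 2 FOSB was 0.95 ± 0.21, EGR1 was 0.83 ± 0.10 and FOS was called too, at 0.62 ± 0.12. Without vehicle replicate 1 FOSB was 0.91 ± 0.23, FOS was called at 0.59 ± 0.15 and EGR1 was not, at 0.59 ± 0.23 (DESeq2 adjusted p = 0.136). The interaction was called for FOS, at -1.75 ± 0.30, and not for FOSB, at -0.24 ± 0.31, or EGR1, at -0.54 ± 0.25, but EGR1 was called without high-dose replicate 2, at -0.78 ± 0.17 (DESeq2 adjusted p = 2e-05). DESeq2 and edgeR called no gene of the receptor to ERK list, of the JNK and p38 list or of the other MAP kinase phosphatases in HT29, with 4, 2 and 0 at an unadjusted p under 0.05.

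With wortmannin in SW1783, 2 of 9 ERK target genes were called, both ETS factors: ETV1 at 0.77 ± 0.04 (1795 ± 59.4 to 3057 ± 18.1 normalized counts) and ETV4 at 0.71 ± 0.14. ETV1 had fallen with the high dose of ACD. With wortmannin in SW1783 1.72% of all genes tested were called higher and 0.952% lower. FOS at 0.70 ± 0.28 and EGR1 at 0.68 ± 0.09 were called among the immediate early genes, and PDGFRA at 0.60 ± 0.07 in the cascade. In HT29 the only gene of these lists that DESeq2 called with wortmannin was MAP2K6, a kinase that activates p38, at 0.75 ± 0.22, and 0.75 ± 0.25 without vehicle replicate 1.

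How alike the genes ran over all libraries of a line is given as a description, since libraries of 1 batch share their processing and the doses set the spread. Over the 18 SW1783 libraries, Pearson's r of log2 normalized counts over the 45 pairs of the 10 genes was -0.86 to 0.98 (median 0.49), with 15 pairs below 0. Over the 18 HT29 libraries it was -0.77 to 0.95 (median 0.0011), with 22 below 0. Between the 6 genes that rose in SW1783, a choice that itself favours a high r there, r ran from 0.86 to 0.98, and in HT29 the same pairs ran from -0.77 to 0.55. The 5 genes outside the family whose counts ran closest to DUSP6 in SW1783, of 11370 compared, were EBLN3P (r = 0.993), PNRC1 and PJA2 (both 0.986), and PLAUR and MARF1 (both 0.983), of which PLAUR encodes the urokinase receptor. In HT29, of 10909 compared, they were QARS1 (0.782), TNFRSF14 (0.769), TRPC4AP (0.764), VPS8 (0.759) and PREP (0.755).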

How the data were processed

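Total RNA from SW1783 and HT29 cells was made into directional mRNA libraries by the authors, sequenced as 100-base paired reads, trimmed with Trim Galore 0.6.5, aligned with STAR 2.7.3a and quantified with RSEM 1.3.3 on GRCh38 (versions from the submitters' processing notes; the study's methods give other versions of the first 2 tools, and write hg19 beside GRCh38). The deposited table holds the authors' RSEM expected counts, not normalized, of which 8.84% were not whole and were rounded here. The strand setting of RSEM was not stated. The series' design text names 2% DMSO as vehicle where the sample labels give 0.1%. In the study's methods 2% is the content of the PBS solution of the extract, a small volume of which went into each well's medium. The values therefore need not conflict.

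Differences were tested here with the two-sided Wald test of DESeq2 1.42.0 (R 4.3.3, default size factors and filtering) on the 12 batch B or 6 batch A libraries of a line, and with both lines together for interactions and for the comparison of vehicles. P-values were adjusted by Benjamini-Hochberg over all genes, and genes DESeq2 filtered on low counts were left untested. Calls needed an adjusted p under 0.05 and over 1.5-fold. Alternatives were edgeR 4.0.16 (quasi-likelihood), TMM size factors, a low-count filter, no fold threshold, removal of mitochondrial genes, fits of the compared groups alone, a replicate block and leaving out each library. TPM was computed from the counts and GENCODE v44 exon lengths. A count of 0 allows up to 3 counts, a CPM of 0.0886 to 0.188 by library, which covers counting error only. The fits were also run on simulated counts with independent libraries. Such counts cannot show the effect of libraries that stand apart or are paired.

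The genes and lists were chosen with earlier results of these data known. All 10 genes are given with their values. Of the other lists, the called genes with the 3 largest changes per list and line at the high dose and with wortmannin were named if their mean normalized count was at least 50, and likeness to DUSP6 used genes with a mean of 100 or more. Alternatives for high against medium dose and for the 2 lines' vehicles were chosen after seeing the data, as were the fits of the other lists without the HT29 libraries that stood apart. Promoter windows came from the RefSeq table (8 of the 10 genes).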

Additional observations from a re-analysis of the deposited data

Results flagged for a closer look

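The response to ACD differed between the lines by the interaction test of DESeq2, the log2 change in SW1783 minus that in HT29, for 6 genes at the high dose. Line, culture medium and the number of cells plated cannot be told apart in this test. The differences were 2.03 for DUSP10, 2.00 for DUSP1, 1.94 for DUSP5, 1.91 for SPRY2, 1.31 for SPRY4 and 1.26 for DUSP6, all toward SW1783. Leaving out each library in turn gave 1.84 to 2.24, 1.88 to 2.11, 1.84 to 2.00, 1.87 to 1.96, 1.10 to 1.45 and 1.19 to 1.32 in the same order. At the medium dose the test picked out DUSP1 at 0.91 (0.80 to 1.03 with a library left out) and DUSP10 at 1.01 (0.81 to 1.22). The medium-dose call of DUSP10 was lost in most of the 12 fits that left out a library, and with the replicate block. The DUSP10 differences rest on 8.213 to 22.51 normalized counts per vehicle or high-dose library in HT29. With 3 libraries a group, no library was dropped from the main fits for outlying values, and DESeq2's default screen of single counts was left on.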

How the results depend on the processing

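The number of the 10 genes called stayed within 1.5 times its value in 188 of 216 alternatives. Without the fold threshold it was 5 for the medium dose and 7 for wortmannin in SW1783, 3, 1 and 1 for the high dose, the low dose and wortmannin in HT29, and 4, 1 and 2 for the medium, low and wortmannin interactions. With a library left out, the medium dose in SW1783 gave 1 to 2 (DUSP1 was lost), the medium interaction 1 to 2 (DUSP10 was lost) and the wortmannin interaction 0 to 1 (SPRY1 was gained). SPRY1 was also gained in that interaction with TMM size factors and with the low-count filter (1 each), and with edgeR for wortmannin in SW1783 (1). The cause was not tested for any of these. Deviations of same-numbered libraries correlated over 0.1 in 5 of 18 pairs in batch B of SW1783, against 0 of 36 pairs with different numbers. All of these pairs were between ACD doses, so those libraries may be paired, which the main fits did not model. In batch B of HT29 it was 5 of 18 against 13 of 36. In batch A it was 0 of 3 against 0 of 6 in SW1783 and 2 of 3 against 1 of 6 in HT29. The replicate block left 1 call in the medium interaction, as DUSP10 was lost (DESeq2 adjusted p = 0.055), and changed no other call. Of 2010 alternatives for changes of single genes, 1989 kept direction and side of the threshold, 13 lost and 7 gained a call, and 1 reversed: SPRED2 from medium to high dose in HT29, at -0.16, was 0.0204 without high-dose replicate 2 and -0.276 to 0.0204 over the libraries left out. A change smaller than its own SE without a call was given no direction. Over its 12 alternatives at the high dose in SW1783, DUSP5 gave 2.90 to 3.02, DUSP1 1.78 to 1.84, SPRY2 1.68 to 1.72, DUSP6 1.35 to 1.48, SPRY4 1.33 to 1.42 and DUSP10 1.16 to 1.28. Depth limits SPRY1 in SW1783 and DUSP10 in HT29 most, with an SE of 0.60 and 0.46 at the high dose.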
